A study of Drosophila melanogaster with 3 samples.

Results

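MCM peaks on the heterochromatin scaffolds 2LHet, 2RHet, 3LHet, 3RHet, XHet and YHet and on the unplaced scaffold U of the Drosophila melanogaster assembly were described. Members were all listed peaks whose scaffold name was 1 of these 7, with no use of score or width. They numbered 194 of 9668 peaks in replicate 1 and 509 of 8447 in replicate 2, or 703 of 18115 over both lists. The peaks come from chromatin immunoprecipitation and sequencing in S2-DRSC cells, a male cell line derived from late embryos, grown as asynchronous cultures, for which the labels name no treatment, transgene or other genetic change. Both immunoprecipitations used the same crude mouse monoclonal antibody, raised against yeast MCM and directed at the Walker B motif of MCM2-7, and the labels number them extraction 1 and extraction 2, called replicate 1 and replicate 2 here. A further sample, labelled extraction 3, was input DNA, and no list of it was analysed here. Whether the extractions came from separate cultures is not given, and the spread between the lists may be technical. The cells stand for 1 cultured line rather than for embryonic tissue. Read counts were not used here and the depth of each library is unknown.

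MCM2-7 is the ring-shaped helicase that is loaded onto DNA at future origins before replication and later unwinds the template. It is loaded by the origin recognition complex with Cdc6 and Cdt1, and the Walker B motif belongs to the ATP-hydrolysing site that its subunits share. Heterochromatin is the compact, gene-poor and repeat-rich chromatin around centromeres and along the Y chromosome, and in flies it is largely copied late in S phase. The Het scaffolds of this assembly hold the part of that sequence that could be assigned to a chromosome arm. U is a string of pieces that could not be placed, so peaks that are neighbours on U need not be neighbours in the cell.

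MCM peaks were listed on 6 of the 7 scaffolds in replicate 1 and on all 7 in replicate 2, and the lists disagreed on how many. The scaffolds held 2.01% of the replicate 1 list (exact Clopper-Pearson 95% interval 1.74 to 2.31) and 6.03% of the replicate 2 list (5.53 to 6.55), a mean of 4.02% ± 2.84 (SD, n = 2). Replicate 2 thus listed 2.62 times as many scaffold peaks as replicate 1, while on the 5 major arms it listed 0.839 times as many (7848 against 9351 peaks) and on chromosome 4 0.732 times as many (90 against 123). These intervals cover counting error alone, and peaks of 1 list are not independent. No test of the scaffolds against the arms was made, and each such difference is given as a description. With 2 libraries, a comparison of both within each library would rest on 1 degree of freedom.

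The excess of replicate 2 was unequal among scaffolds. U had 54 peaks in replicate 1 and 291 in replicate 2, a ratio of 5.39. The ratio was 2 on 3RHet (28 and 56 peaks), 1.76 on 3LHet (38 and 67), 1.29 on 2RHet (58 and 75) and 1.25 on 2LHet (8 and 10). XHet had 8 peaks in each list. YHet had no peak in replicate 1 and 2 in replicate 2, at YHet 71220 to 71319 with a score of 13.5 and at 114763 to 114871 with a score of 19.3. Without U, the other 6 scaffolds held 140 and 218 peaks, a ratio of 1.56.

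**Figure D1:**
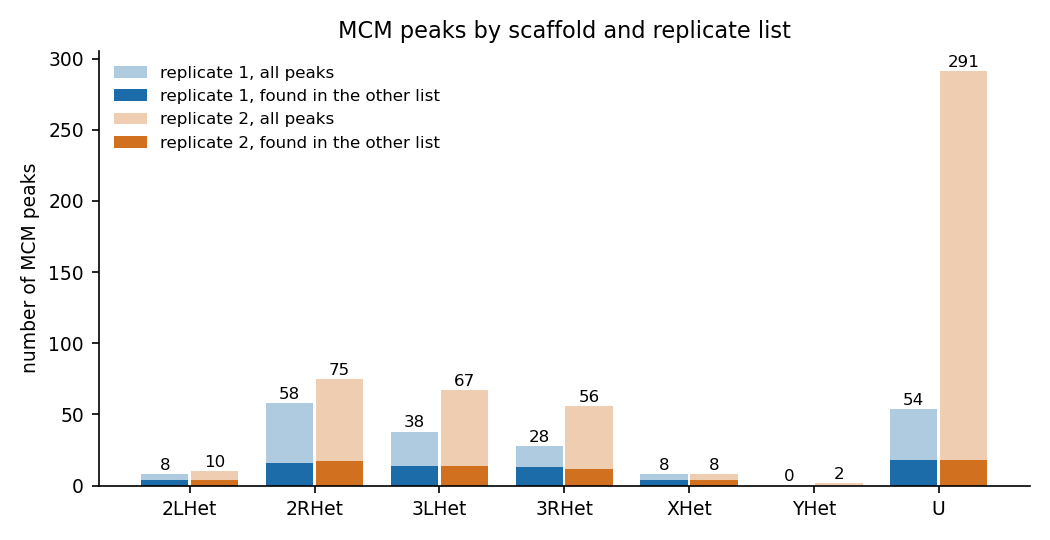
Number of MCM peaks (vertical axis) on each scaffold in replicate 1 (blue) and replicate 2 (orange), with the solid lower part of each bar counting peaks that share at least 1 bp with a peak of the other list. U rose highest, with 291 peaks in replicate 2 against 54 in replicate 1, while the solid parts were of like height in both lists on every scaffold.

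Peaks were sparser on the scaffolds than on the arms in both lists. Taking each scaffold as long as its last listed peak end, which makes every density an upper limit, the 7 scaffolds reached 19.0 Mb and held 10.2 peaks per Mb in replicate 1 and 26.8 in replicate 2. The major arms held 78.6 and 66.0. XHet was the densest, with 40.3 peaks per Mb in both lists. 2RHet, 3LHet and 3RHet lay between 11.1 (3RHet) and 17.9 (2RHet) peaks per Mb in replicate 1 and between 22.2 (3RHet) and 26.3 (3LHet) in replicate 2. U had 5.38 peaks per Mb in replicate 1, the lowest of the scaffolds with a peak there, and 29.0 in replicate 2. How uniquely reads can be placed on these sequences was not analysed here.

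Scaffold peaks were narrow. The median width was 85.5 bp in replicate 1 (interquartile range 31 to 190 bp) and 93 bp in replicate 2 (30 to 184 bp), a mean of the medians of 89.2 ± 5.30 bp (SD, n = 2). On the major arms the medians were 134 and 97 bp. Of the scaffold peaks, 34.5% in replicate 1 and 35.6% in replicate 2 were narrower than 50 bp, against 16.6% and 27.0% on the arms. On chromosome 4 the median widths were 143 and 63.5 bp, and 14.6% and 41.1% of peaks were under 50 bp. In replicate 2 chromosome 4 peaks were thus narrower than scaffold peaks. Among scaffolds with more than 10 peaks in each list, 3LHet had the narrowest median in replicate 1 (62 bp), and 3RHet (64 bp) and 3LHet (65 bp) had the narrowest in replicate 2. 3RHet was the scaffold whose median differed most between the lists among these (114.5 bp and 64 bp), and 2RHet had 78 bp in both.

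The single widest peak was MCM_R1_1716 of replicate 1, at 2LHet 248307 to 368036. It was 119730 bp long, 13.0 times the next widest scaffold peak of that list, and made up 76.3% of all bases that replicate 1 peaks covered on the 7 scaffolds. Its score of 1.18 was the 3rd lowest of the replicate 1 list. Replicate 2 had 1 peak that met it, MCM_R2_1306 at 2LHet 368007 to 368107, with 101 bp, a score of 8.32 and 30 shared bp at the very end. No other replicate 2 peak lay within it, so the lists shared only these 30 bp of the interval. The remaining 2LHet peaks of replicate 1 had a median width of 74 bp. With this peak left out, replicate 1 peaks covered 37267 bp of the scaffolds in place of 156997 bp, against 96542 bp in replicate 2.

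The other widest peaks carried low scores on U and higher ones on 2RHet. On U, MCM_R1_7843 (5288545 to 5297748, 9204 bp) scored 1.15 and MCM_R1_7841 (4480063 to 4481125, 1063 bp) scored 1.30 in replicate 1, and MCM_R2_6503 (1089142 to 1092396, 3255 bp) scored 1.44 in replicate 2. On 2RHet, MCM_R2_2810 (2572600 to 2575010, 2411 bp) scored 4.73 in replicate 2, at percentile 73.3 of that list. MCM_R2_2819 of replicate 2, at 2RHet 3179945 to 3182846 (2902 bp), scored 1018 and had no match in replicate 1.

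Scores set the lists apart more than widths did. The score is the authors' own value per peak, with no unit given, and it is compared here as a percentile within each list. The median scaffold peak of replicate 1 scored 2.45 and stood at percentile 16.9 of its list, below most peaks of the genome. The median scaffold peak of replicate 2 scored 7.36 and stood at percentile 91.6. On the major arms the median percentiles were 50.1 and 49.3. The order of the scaffolds also changed. In replicate 1, U stood lowest (median percentile 8.21), followed by 2RHet (11.1), 3RHet (26.3), XHet (30.5), 2LHet (34.0) and 3LHet (38.5). In replicate 2, XHet stood lowest (26.8), followed by 3RHet (39.0), 2LHet (54.5), 3LHet (57.3), 2RHet (64.7) and U (96.5), beside the 2 YHet peaks (97.2). U was therefore the lowest in 1 list and, among scaffolds with more than 10 peaks, the highest in the other. Of the replicate 2 scores on U below 200, 40.1% were whole multiples of 1 step that was fitted to these same scores. Among U scores of at most 5 the share was 9.18%. On the 6 Het scaffolds it was 1.95% at that step, where the tolerance spans 2% of a step. No step was searched for in the Het scores themselves. Whether scores of U and of the other scaffolds share a scale was not tested.

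**Figure D2:**
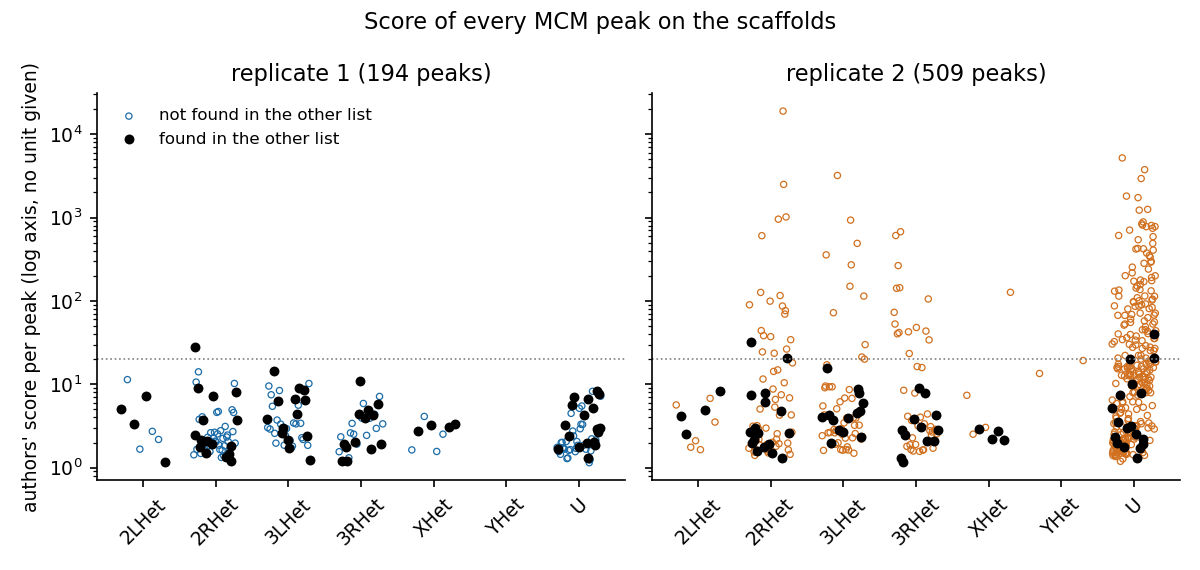
The authors' score of each scaffold peak on a log axis, by scaffold and in order along it, for replicate 1 (left) and replicate 2 (right). Filled black points share at least 1 bp with a peak of the other list, open points do not, and the dotted line marks a score of 20. Replicate 1 has 1 point above the line and replicate 2 has 159, of which 4 are black.

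Scores above 20 were rare in replicate 1 and frequent in replicate 2. Over the whole lists such scores made up 0.124% of replicate 1 peaks and 2.33% of replicate 2 peaks. On the scaffolds they made up 1 of 194 peaks (0.515%) in replicate 1 and 159 of 509 (31.2%) in replicate 2. Of all 197 replicate 2 peaks above 20, 80.7% lay on the 7 scaffolds, as did 74 of the 89 above 100 and 11 of the 15 above 1000. By scaffold, 111 of the 159 were on U, 21 on 2RHet, 15 on 3RHet, 11 on 3LHet and 1 on XHet, and none was on 2LHet or YHet. On U they made up 38.1% of the replicate 2 peaks, on 2RHet 28.0%, on 3RHet 26.8% and on 3LHet 16.4%.

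The highest scores of replicate 2 sat on very short intervals that replicate 1 did not list. MCM_R2_2814 at 2RHet 2608882 to 2608893 was 12 bp long and scored 18943, the highest score of the whole list. The next peak on that scaffold, MCM_R2_2815 at 2609548 to 2609571 (24 bp), lay 654 bp away and scored 2500. On U, MCM_R2_6551 at 2452148 was a single base with a score of 5193, MCM_R2_6700 at 7880382 to 7880394 (13 bp) scored 3754 and MCM_R2_6677 at 7265027 to 7265039 (13 bp) scored 2938. MCM_R2_4415 at 3LHet 1037332 to 1037431, exactly 100 bp long, scored 3200. None of these overlapped a replicate 1 peak. Short width was not general among high scores, since the 159 peaks above 20 had a median width of 108 bp and 24.5% of them were under 50 bp, against 40.6% of the 350 scaffold peaks at or below 20.

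The highest scores of replicate 1 were lower and more often repeated. MCM_R1_3541 at 2RHet 198089 to 198110 (22 bp) scored 27.8, MCM_R1_5401 at 3LHet 459509 to 459572 (64 bp) 14.5, MCM_R1_3545 at 2RHet 370399 to 370502 (104 bp) 14.1, MCM_R1_1710 at 2LHet 33283 to 33315 (33 bp) 11.4 and MCM_R1_7666 at 3RHet 1808474 to 1808586 (113 bp) 10.8. Of these 5, MCM_R1_3541, MCM_R1_5401 and MCM_R1_7666 shared bases with a replicate 2 peak. The 5 highest of replicate 2 had no such match.

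The central comparison asked which scaffold peaks were listed at the same place in both immunoprecipitations. Over the whole lists, 59.8% of replicate 1 peaks shared at least 1 bp with a replicate 2 peak, and 70.3% of replicate 2 peaks shared at least 1 bp with a replicate 1 peak. On the scaffolds the shares were 69 of 194 (35.6%, exact 95% interval 28.8 to 42.7) and 69 of 509 (13.6%, 10.7 to 16.8). Without U they were 36.4% (28.5 to 44.98) and 23.4% (17.9 to 29.6). On the arms alone they were 60.6% and 74.1%. On chromosome 4 they were 46 of 123 (37.4%, 28.8 to 46.6) and 50 of 90 (55.6%, 44.7 to 66.0). A low share in replicate 1 was thus not particular to the scaffolds. All scaffold shares were thus below the shares of the whole lists, and the gap was wider for replicate 2. Nearly all matches were 1 to 1, and replicate 1 listed fewer scaffold peaks than replicate 2 (194 against 509). This limits the share of replicate 2 scaffold peaks that can be matched. On the arms replicate 1 listed more peaks (9351 against 7848), so no such limit applied there. How much of the wider gap goes with this limit was not tested.

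Overlap is mutual, so the matched counts of both lists are nearly equal on each scaffold by construction, and the shares differ through the number of unmatched peaks. On 2LHet, 4 of 8 peaks in replicate 1 and 4 of 10 in replicate 2 were matched. XHet had 4 of 8 in each list. On 2RHet the counts were 16 of 58 (27.6%) and 17 of 75 (22.7%), on 3LHet 14 of 38 (36.8%) and 14 of 67 (20.9%), and on 3RHet 13 of 28 (46.4%) and 12 of 56 (21.4%). On U they were 18 of 54 (33.3%) and 18 of 291 (6.19%). Neither YHet peak was matched, and 0 of 2 allows a share of up to 84.2%. The 95% intervals of the 5 scaffolds other than U and YHet overlapped one another within each list, so no order among them is given.

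In replicate 1, wider peaks were recovered more often, on scaffolds and arms alike. Replicate 1 scaffold peaks under 50 bp were found in replicate 2 in 13.4% of cases (6.33 to 24.0), those of 50 to 99 bp in 26.7% (14.6 to 41.9), those of 100 to under 200 bp in 42.1% (26.3 to 59.2) and those of 200 bp or more in 72.7% (57.2 to 85.0). On the arms the shares were 14.4%, 33.0%, 71.7% and 91.4%. The narrowest class thus differed by less than its counting interval, and the 2 widest classes were lower on the scaffolds. Within the widest class, 26 of 31 peaks on the 6 Het scaffolds (83.9%, 66.3 to 94.5) and 6 of 13 on U (46.2%, 19.2 to 74.9) were found. A longer interval can also meet a peak more easily by its length.

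In replicate 2 the share found was below that of the arms at every width, under the limit that the fewer replicate 1 scaffold peaks set. Scaffold peaks of 200 bp or more were found in replicate 1 in 22.2% of 117 cases (15.1 to 30.8), against 93.6% of 1659 on the arms. For peaks under 50 bp the shares were 8.29% of 181 (4.71 to 13.3) and 42.2% of 2118. On the 6 Het scaffolds the widest class reached 18 of 45 peaks (40%) and on U 8 of 72 (11.1%). These classes of width, and those of score that follow, were chosen after the lists had been seen.

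**Figure D3:**
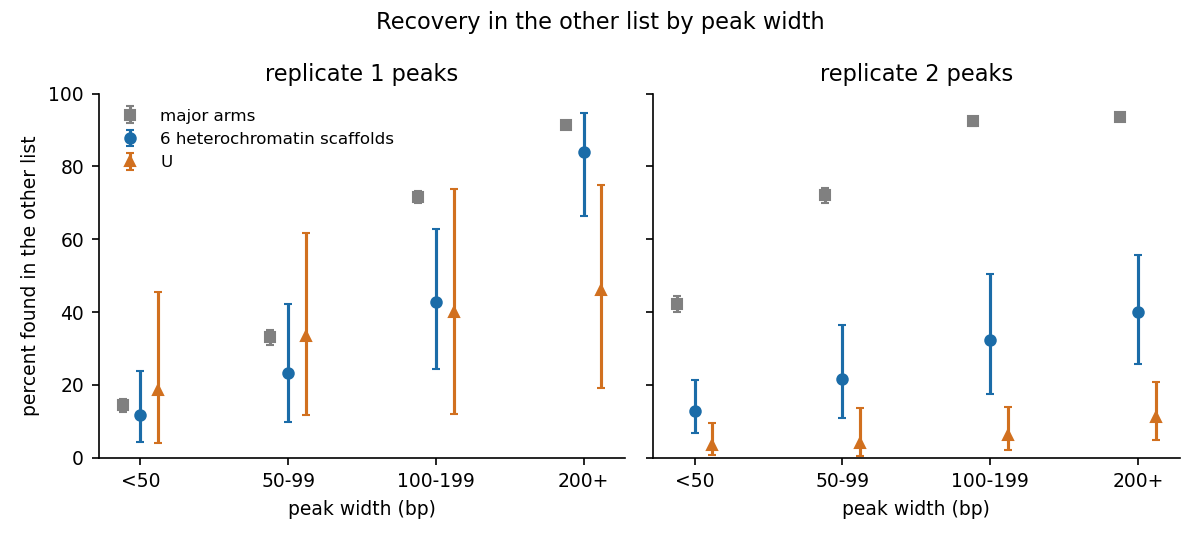
Percent of peaks found in the other list (vertical axis) by peak width in bp for replicate 1 peaks (left) and replicate 2 peaks (right), on the major arms (grey squares), the 6 Het scaffolds (blue circles) and U (orange triangles). Bars are exact 95% intervals. The replicate 1 symbols lie close together under 50 bp, while in replicate 2 the arms lie above both scaffold classes at every width.

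Recovery was lowest at the high end of the replicate 2 scores. Of the scaffold peaks of replicate 2 scoring above 2 to 5, 27.0% of 137 were matched (19.8 to 35.3). The share was 14.4% of 90 at a score of at most 2, 12.2% of 123 above 5 to 20, 4.71% of 85 above 20 to 100, and 0 of 74 above 100, which allows a share of up to 4.86%. The highest-scoring scaffold peaks of replicate 2 thus had no counterpart. High scores of replicate 2 were also seldom matched on the major arms, where 80.4% of peaks above 5 to 20 were matched, 2 of 29 above 20 (6.90%) and 1 of 9 above 100. At a score of at most 2, the arm share was 27.3%. In replicate 1 the order was otherwise, with 31.3% of 67 peaks matched at a score of at most 2, 31.1% of 90 above 2 to 5 and 52.8% of 36 above 5 to 20, where the interval ran from 35.5 to 69.6.

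Peaks without a match were mostly not near misses. In replicate 2, 47 of 440 unmatched scaffold peaks (10.7%) lay under 1 kb from a replicate 1 peak, and the median distance was 29.5 kb. On U that median was 80.6 kb and on the 6 Het scaffolds 9.38 kb. On the arms, 50.3% of the unmatched replicate 2 peaks lay under 1 kb from a replicate 1 peak. Such distances also depend on how dense the other list is. Replicate 1 had 5.38 peaks per Mb on U, 15.6 on the 6 Het scaffolds and 78.6 on the arms, and distances were not adjusted for this. In replicate 1, 40 of 125 unmatched scaffold peaks (32.0%) lay under 1 kb from a replicate 2 peak, with a median distance of 3.89 kb, and the share on the arms was 38.4%.

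The peaks listed in both replicates formed 70 overlapping pairs in 68 places, and each of the 68 intervals that the series list gives on these scaffolds ran exactly from the first to the last base of its overlapping peaks. They lay as 16 intervals on 2RHet, 14 on 3LHet, 12 on 3RHet, 4 on 2LHet, 4 on XHet and 18 on U. A single replicate 1 peak met more than 1 replicate 2 peak, and a single replicate 2 peak met more than 1 replicate 1 peak. The pairs shared 4 to 951 bp, with a median of 95.5 bp, and 19 of them shared 30 bp or less.

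Scores of paired peaks were close on the Het scaffolds and less so on U. The median log2 ratio of the replicate 2 score over the replicate 1 score was 0.02 over the 70 pairs (interquartile range -0.34 to 0.38), a ratio of 1.01, and 49 pairs (70%) lay within 1.5 times of each other. On the arms 91.6% of 5873 pairs did so, and on chromosome 4 26 of 50. On the 6 Het scaffolds the share was 78.8% of 52 pairs and on U 44.4% of 18. Of the 21 scaffold pairs beyond 1.5 times, 14 were higher in replicate 2 and 7 in replicate 1. Neither list was higher as a rule, with replicate 2 above in 36 pairs and replicate 1 above in 34. Scaffolds differed in this count, since replicate 2 was the higher in 13 of 17 pairs on 2RHet and replicate 1 in 11 of 18 on U. Setting scores of both lists side by side assumes that they are on a like scale.

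The replicate 1 peak was more often the wider of a pair on the Het scaffolds and the arms, but not on U. On the 6 Het scaffolds the replicate 1 peak was wider in 33 of 52 pairs (63.5%), with median widths of 207.5 and 114 bp, and on the arms in 79.5% of pairs (196 and 121 bp). On U the replicate 2 peak was wider in 12 of 18 pairs, with median widths of 107 bp in replicate 1 and 177.5 bp in replicate 2. In the 14 pairs that scored over 1.5 times higher in replicate 2, the replicate 2 peak was the wider in 10.

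**Figure D4:**
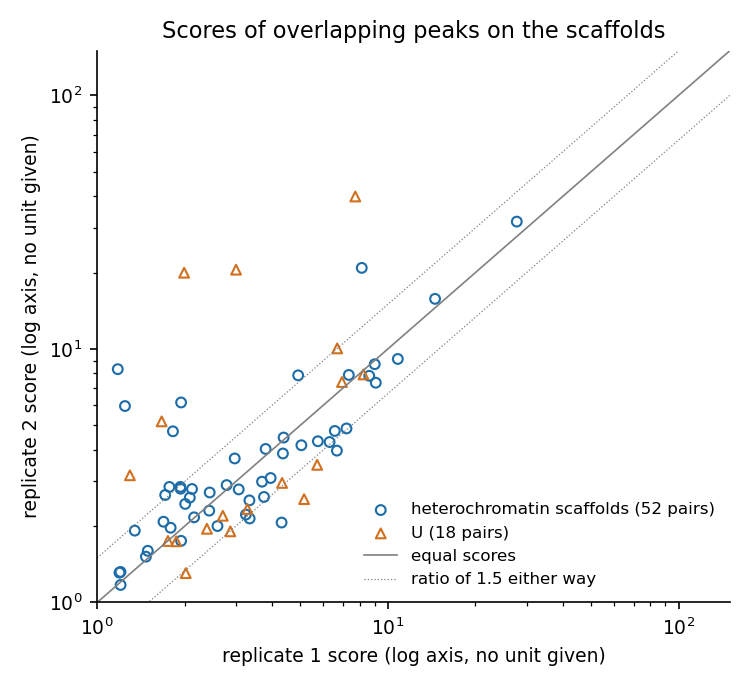
Scores of the 70 overlapping pairs, replicate 1 on the horizontal and replicate 2 on the vertical log axis, for the Het scaffolds (blue circles, 52 pairs) and U (orange triangles, 18 pairs). The solid line marks equal scores and the dotted lines a ratio of 1.5. Most circles lie between the dotted lines, and the triangles are spread further, up to a ratio of 10.04.

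The 10 pairs with the highest mean score were named. The strongest was the 2RHet pair at 198088 to 198115 (series interval MCM_2112), where the replicate 1 peak of 22 bp scored 27.8 and the replicate 2 peak of 28 bp scored 31.8. MCM_3208 at 3LHet 459509 to 459572 scored 14.5 and 15.8 in the same order. MCM_4604 at 3RHet 1808474 to 1808586 scored 10.8 and 9.13. MCM_3216 at 3LHet 2190705 to 2190874 scored 9.01 and 8.70, and MCM_3217 at 3LHet 2243461 to 2243562 scored 8.63 and 7.83. These 5 places, all on Het scaffolds, were grouped by their ratio of scores, which ran from 0.844 to 1.14. In each of them both peaks stood above percentile 90 of their lists. The same held for MCM_4673 and MCM_4666 on U and MCM_2125 on 2RHet, described below. Over all 70 pairs, 12 were above percentile 90 in both lists and 12 were at or below percentile 10 in both.

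The other 5 of these pairs scored over 1.5 times higher in replicate 2, while MCM_2112 and MCM_3208 above were higher there by less. MCM_4673 at U 9143026 to 9143212 scored 7.72 in replicate 1 and 39.9 in replicate 2. MCM_4674 at U 9151167 to 9151436 scored 3.004 and 20.5, and MCM_4664 at U 4022470 to 4023154 scored 1.99 and 19.98. MCM_2125 at 2RHet 3197904 to 3198133 scored 8.13 and 20.9, and MCM_4666 at U 4984395 to 4984494 scored 6.69 and 10.05. MCM_4664 had the largest ratio of the 70 pairs, 10.04, and its replicate 2 peak was 685 bp wide against 112 bp in replicate 1.

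Scaffold peaks lay in groups, though less densely than on the arms. Over the whole lists, 87.6% of replicate 1 peaks and 84.1% of replicate 2 peaks had another peak of their own list within 10 kb. On the scaffolds 56.7% and 66.2% did, a mean of 61.5% ± 6.72 (SD, n = 2). The shares were below those of the whole lists in both replicates, beside a lower density. A neighbour under 1 kb away was present for 37.1% and 39.4% of peaks on the 6 Het scaffolds in replicates 1 and 2. On U the shares were 11.1% and 33.3%, and on the arms 44.7% and 43.6%. At the limit of 10 kb, 60.3% of replicate 1 and 80.0% of replicate 2 peaks on 2RHet had a neighbour. At that limit the shares were 57.9% and 61.2% on 3LHet, 57.1% and 60.7% on 3RHet, and 44.4% and 64.3% on U. On 2LHet 6 of 8 and 9 of 10 peaks had a neighbour within 10 kb, and on XHet 7 of 8 and 6 of 8. The median gap between neighbouring peaks on 2RHet was 16.2 kb in replicate 1 and 1.68 kb in replicate 2, whereas on the arms it was 3.99 and 4.21 kb. No 2 scaffold peaks of a list were closer than 210 bp in replicate 1 or 200 bp in replicate 2.

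**Figure D5:**
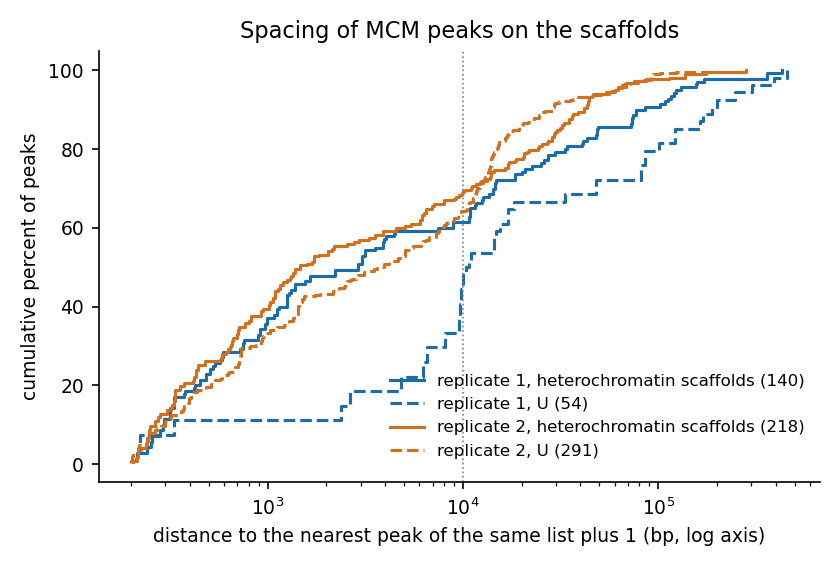
Cumulative percent of scaffold peaks (vertical axis) against the distance to the nearest peak of the same list, plus 1 bp, on a log axis, for replicate 1 (blue) and replicate 2 (orange), on Het scaffolds (solid) and U (dashed). The dotted line marks 10 kb. Both solid lines run close together up to 10 kb, and the replicate 1 line for U lies lowest from 1 kb to beyond 10 kb, with 44.4% of its peaks within that distance against 64.3% in replicate 2.

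Chains, in which each peak lies within 10 kb of the next, held a smaller share of the scaffold peaks than of the whole lists. Chains at a fixed distance also depend on peak density, which was lower on the scaffolds. Chains of 3 or more took in 76% of the whole replicate 1 list and 70.8% of the whole replicate 2 list. On the scaffolds such chains numbered 14 in replicate 1, with 56 of 194 peaks (28.9%), and 51 in replicate 2, with 245 of 509 (48.1%). On U replicate 1 had no such chain and replicate 2 had 28. The largest chain of replicate 2 was at 2RHet 2254863 to 2286075, with 15 peaks over 31.2 kb, scores from 1.52 to 957 and 4 scores above 20. Replicate 1 had 1 peak in that stretch. In replicate 1 the largest chains had 7 peaks each, at 2RHet 466502 to 474483 and at XHet 75110 to 84891, where replicate 2 had 6 and 5 peaks. Of the 7 replicate 1 peaks, 3 in the 2RHet chain and 4 in the XHet chain were matched, and the scores reached no more than 4.07 and 4.12. Another replicate 1 chain on 2RHet, of 5 peaks at 1716287 to 1722893, held no replicate 2 peak.

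Windows of 20 kb were fullest in replicate 2. The 3 fullest were all of replicate 2, with 12 peaks at 2RHet 2260001 to 2280000, 12 at U 2200001 to 2220000 and 8 at 3LHet 1080001 to 1100000, and replicate 1 had 1 peak in each of them. The U window had a median score of 19.0 with a highest score of 610, and none of its 12 peaks was matched. The 3LHet window had a median score of 2.79 and a highest score of 6.84. In contrast, the window XHet 60001 to 80000 held 4 peaks in each list, of which 2 were matched.

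Peaks of U were spread differently along it in the lists. In the first 6 Mb replicate 1 had 43 of its 54 peaks, and beyond that 11. Replicate 2 had 136 of 291 in the first 6 Mb and 155 beyond, including 83 of its 111 scores above 20. Matched peaks made up 8 of the 11 replicate 1 peaks beyond 6 Mb (72.7%) and 10 of the 43 before it (23.3%). For replicate 2 the shares were 5.16% and 7.35%. From 8 to 9 Mb replicate 1 had no peak and replicate 2 had 48, and from 5 to 6 Mb replicate 1 had 4 and replicate 2 had none. The boundary at 6 Mb was chosen after the positions had been seen, and positions on U reflect the order in which pieces were joined.

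The longer Het scaffolds also changed along their length. On 3RHet, 9 of the 15 replicate 2 scores above 20 lay in the first Mb, where 13 replicate 2 peaks had a median score of 52.8 and 8 replicate 1 peaks had a median score of 1.66. On 2RHet, replicate 1 peaks thinned out from 24 in the first Mb to 17 and 13 in the following ones, while replicate 2 had 20, 13 and 28. The stretch from 3 Mb to the last listed peak end at 3.24 Mb held 4 and 14 peaks. It is not a full Mb, so these counts are not comparable with the others. The first Mb of 2RHet held 8 of the 16 matched replicate 1 peaks of that scaffold. On 3LHet, replicate 1 had 16, 10 and 12 peaks in successive Mb and replicate 2 had 23, 30 and 14. The last count of each covers only the stretch up to the last listed peak end at 2.55 Mb.

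The longest stretches without a peak of either list were 525 kb on U (445220 to 970136), 380 kb on 3RHet (197017 to 576846), 362 kb on 2RHet (1259957 to 1621636), 217 kb on 3LHet (1929842 to 2146519), 118 kb on 2LHet (47321 to 165651) and 114 kb on XHet (84892 to 198462). YHet had 43.4 kb between its 2 peaks. On XHet the stretch ended at the highest-scoring peak of that scaffold, MCM_R2_8445 at 198463 to 198644 with a score of 127 in replicate 2, and the matched XHet peaks all lay on its other side, between 75110 and 84891. Positions are on FlyBase release 5.1. No gene or sequence at these positions was analysed here, as the annotation at hand was of another build.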

How the data were processed

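The 3 samples were 2 MCM immunoprecipitations and 1 input, grouped from their titles and descriptions. Per the file headers, coordinates are on FlyBase release 5.1, and the caller column names PeakSeq, with 1 list per immunoprecipitation. Not given in the sources used here are aligner, caller version, thresholds and control. Each peak's score was deposited by the authors without a unit. Depth is unknown.

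Peaks on 7 scaffolds were selected by scaffold name. Overlap meant at least 1 shared bp, distances ran edge to edge, percentiles were ranks within a list, and intervals are exact (Clopper-Pearson, 95%). No test across samples was run. Members and lists were chosen with earlier results of these data known. Named were the 10 highest-scoring pairs, the 5 highest and 3 widest peaks of each list, the 3 fullest 20 kb windows, the largest chains and the longest empty stretches; the XHet and YHet peaks, MCM_R2_2815, the XHet window and the 5-peak 2RHet chain were added after their values were seen. The code was tested on simulated data. Alternatives included 50% overlap, centres within 500 bp, peaks of at least 50 bp, the higher-scoring 50%, distances of 5 and 20 kb, merging under 1 kb, covered bases, and a score limit of 10. Tools were matplotlib 3.10.9, SciPy 1.17.1, pandas 2.3.3 and NumPy 2.4.6 under Python 3.11.15.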

Additional observations from a re-analysis of the deposited data

How the results depend on the processing

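The share of replicate 1 scaffold peaks found in replicate 2 was 23.2% at an overlap of 50% of the peak length and 47.9% with centres within 500 bp. The share of replicate 2 scaffold peaks found in replicate 1 was 23.4% without U, 7.07% in the higher-scoring 50% of each list, 10.02% at 50% overlap, 16.9% with centres within 500 bp and 18.6% among peaks scoring at most 20, the last chosen after seeing the data. The mean share of peaks with a neighbour within 10 kb was 48.5% in the higher-scoring 50% and 44.2% after merging peaks closer than 1 kb, and 52.5% and 77.1% at 5 and 20 kb by construction of the distance. Without U the mean of the median widths was 76.2 bp. The scaffolds held 7.83% of covered bases, and 4.77% without the 119730 bp peak. Without U the scaffolds held 2.01% of listed peaks on average in place of 4.02%, and their mean percentile was 35.9 in place of 54.3. Leaving out a replicate gave each list's own value. These ranged from 2.01% to 6.03% of listed peaks, 56.7% to 66.2% with a near neighbour, 85.5 to 93 bp, percentiles from 16.9 to 91.6, and 0.515% to 31.2% above 20. The share of listed peaks, the percentile and the share above 20 therefore depend on which list is used. Where no cause is named, the cause was not tested. No pairing of samples across groups was possible because the lists are of 1 group, so no other group shares their replicate numbers. Scaffold and arm values of the same list were set side by side with no test.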

Other observations

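Many replicate 2 scores on U lay on multiples of 1 step. Of the 291 peaks, 81 (27.8%) had a score that another peak of U also had, in 32 distinct values, which was a lower share than the 37.9% of replicate 2 peaks on the major arms that shared a score on their own arm. The score 16.4 occurred at 5 peaks and 10.05 at 4. Of the 257 scores below 200, 103 (40.1%) were whole multiples of 0.529 within 0.01 of a step. The share was 9.18% of the 98 scores of at most 5, 68.3% of the 82 above 5 to 20 and 49.4% of the 77 above 20, so most low scores were off the step. Some repeated scores, such as 1.89 at 3.58 steps, were also off it. The step was found on these same scores, by a search from 0.4 to 2, and so describes them. At this step, fitted to replicate 2 scores on U alone, 1.95% of 205 replicate 2 scores on the other 6 scaffolds were whole multiples. On the arms 1.90% of 7843 were, and among replicate 1 scores on U 0 of 54. The tolerance itself spans 2% of a step. No step was searched for in those other scores, so these shares cannot show whether they lie on steps of their own. In replicate 1, 10 of 54 peaks on U (18.5%) had a score that another peak of U also had. Setting U scores beside those of other scaffolds in the same list assumes a common scale, which was not tested.

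On U, the distance to the nearest peak fell between 8 and 12 kb for 13 of 54 replicate 1 peaks (24.1%), and for 29 of 291 in replicate 2 (9.97%). On the 6 Het scaffolds the shares were 6.43% and 5.05%. The series U 1911164 to 1911275, 1921998 to 1922055 and 1931658 to 1931755 in replicate 1 had gaps of 10722 and 9602 bp and scores of 1.61, 2.39 and 1.65, and its middle peak was matched in replicate 2. At a limit of 12 kb, 53.7% of replicate 1 peaks on U had a neighbour in place of 44.4% at 10 kb.

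A width of exactly 100 bp was the most frequent on the scaffolds in both lists, at 8 peaks in replicate 1 and 20 in replicate 2, and the next most frequent width occurred at 3 and 9 peaks. These were 4.12% and 3.93% of the scaffold peaks, and 1.96% and 2.09% of the peaks on the major arms had that width.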
